A study of Mus musculus with 4 samples.

Results

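The genes described here are 49 genes of the pluripotency network of mouse embryonic stem cells (ESCs), together with genes that mark the step toward the primed state, and the question was where E2F1 sat at their promoters and how that differed between serum ESCs and 2i ESCs. A promoter peak was an E2F1 peak that overlapped the window from 1000 bp upstream to 500 bp downstream of any annotated transcript start of a gene. By this rule, 16 of the 49 genes had 19 promoter peaks, of 4523 peaks in all and beside 4071 promoter peaks of other genes. Of 22238 protein-coding genes, 4227 (19%) had a promoter peak, and of the listed genes 32.7% had one.

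Pluripotency rests on a core of transcription factors, with Pou5f1 (Oct4), Sox2 and Nanog at its center, and on naive factors such as the Krüppel-like proteins and Esrrb that keep ESCs close to the inner cell mass. LIF signaling through the Lifr and Il6st receptor chains and Stat3 holds the naive state, whereas Fgf4 acts through Fgf receptors on ERK and pushes cells toward the primed state. E2F1 is a DNA-binding factor that the retinoblastoma family proteins restrain, and it is best known at promoters of genes that drive entry into S-phase.

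E2F1 chromatin immunoprecipitation with sequencing (ChIP-seq) had been performed on serum ESCs and on 2i ESCs, with 2 biological replicates of each. Serum ESCs grew with fetal calf serum and LIF, and 2i ESCs grew in Ndiff medium with LIF, the MEK inhibitor PD0325901, which blocks ERK signaling, and the GSK3 inhibitor CHIR99021. Both had been kept in their medium for over 20 days, and the ESC line and its genotype are not given in the sources used here for these samples. Each value is a normalized count, which is the number of reads over a peak divided by a size factor of its sample, and 1 read was worth 0.560 to 1.74 normalized counts. Reads in peaks ranged from 248878 in serum replicate 1 to 710519 in 2i replicate 1, with a median of 35 and 111 reads per peak, so counting error was largest in serum replicate 1.

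Sequence around the bound sites was read first. E2F sites were searched on both strands of each peak as TTTCCCGC, TTTGGCGC, TTTCGCGC, TTTGCCGC and the shorter GCGGGAA, which overlaps TTTCCCGC read on the other strand. GCGGGAA lay in 7 of the 19 promoter peaks, and none of the 19 held any of the 8-letter forms. Among the 4071 other promoter peaks, GCGGGAA lay in 19.3%, TTTCCCGC in 3.41%, TTTGGCGC in 1.08%, TTTCGCGC in 1.08% and TTTGCCGC in 1.47%. Any of these letters was found in 36.8% of the listed genes' peaks, in 22% of the other promoter peaks and in 33.4% of those other promoter peaks whose signal was at least the median of the listed genes. The listed genes' peaks were also longer, with a median of 635 bp against 487 bp. The 29-base windows around the match are shown because they include 3 naive factors and both the LIF receptor and an Fgf receptor. They run 5′ to 3′ on the strand of the gene in mm9, and the match is in capitals as GCGGGAA or, where it lies on the other strand, TTCCCGC.
Klf2: cccgcaacccgTTCCCGCcgcccttcggt
Klf4: cagtgggggctGCGGGAAggcggggagaa
Klf5: gactgggacgcGCGGGAAcgggtgcccgg
Lifr: agccgcgctgcTTCCCGCagggccgcctg
Trim71: catccaatatcTTCCCGCcgatgaataat
Fgfr1 peak 2: cggctccattgTTCCCGCccgggctggag
Ctbp2 start peak 1: cggatcgaccgGCGGGAAgagcctttctt

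These windows lie at chr8:74843812-74843840 (plus strand) for Klf2, chr4:55545459-55545487 (minus strand) for Klf4, chr14:99698522-99698550 (plus strand) for Klf5, chr15:7079231-7079259 (plus strand) for Lifr, chr9:114472917-114472945 (minus strand) for Trim71, chr8:26629708-26629736 (plus strand) for the second Fgfr1 peak and chr7:140313669-140313697 (minus strand) for the first peak at the Ctbp2 start. A match is a description of letters, and a peak without one says only that these letters are not in it.

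CpG content was higher at most genes with a promoter peak than at most genes without one. The ratio of observed to expected CpG was computed over the 1501 bases of the promoter window, taking the highest value among the starts of coding transcripts of a gene. It ranged from 0.583 to 1.16 with a median of 0.843 in the 16 genes with a promoter peak, and from 0.137 to 0.886 with a median of 0.459 in the 33 genes without one. Of those 33 genes, 22 lay below Klf2, the lowest of the genes with one. The Klf2 peak begins 482 bp downstream of the start, so nearly all of it lay past the window of that ratio. A stretch of 100 bases inside that peak held 18 CpGs. At a ratio of 0.6 or more, 15 of 25 listed genes had a promoter peak, and below it 1 of 24 had one. Among all protein-coding genes the shares were 43.4% of 9260 and 1.6% of 12972, so a split in the same direction was seen over the genome. Genes with a high ratio and no peak in the window included Tbx3 at 0.886 and Foxd3 at 0.843, of which Foxd3 had a peak further into the gene.

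**Figure D1:**
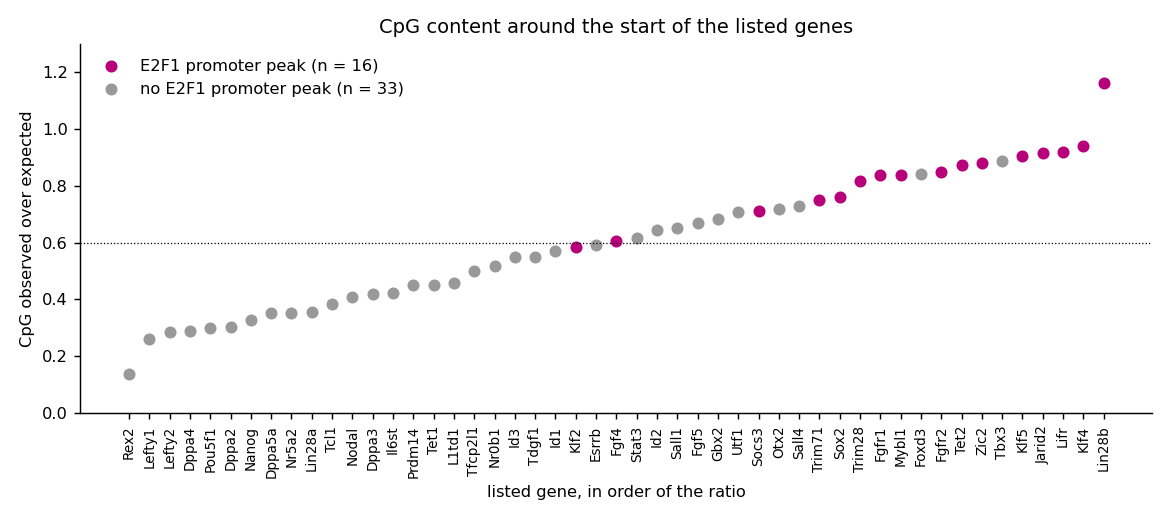
CpG observed over expected around the start (vertical axis, a ratio) of each of the 49 listed genes, placed in order of the ratio, with the 16 genes that had an E2F1 promoter peak in magenta and the 33 that had none in gray. The dotted line marks 0.6, below which Klf2 is the 1 gene with a peak, and nearly all of that peak lies past the window of the ratio.

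Examples can be read in stretches of 100 bases with each CpG in capitals, from mm9 on the strand of the gene. Those of Sox2, Trim28, Jarid2, Lin28b and Klf4 are the stretches in the peak nearest its middle that lie outside annotated untranslated regions, and those of Pou5f1 and Nanog end just before the start farthest upstream.
Sox2: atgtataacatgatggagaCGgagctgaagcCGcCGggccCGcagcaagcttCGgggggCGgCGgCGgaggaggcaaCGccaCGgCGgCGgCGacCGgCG
Trim28: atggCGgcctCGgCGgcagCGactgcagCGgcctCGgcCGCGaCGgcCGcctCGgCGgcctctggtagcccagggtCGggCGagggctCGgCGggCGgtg
Jarid2: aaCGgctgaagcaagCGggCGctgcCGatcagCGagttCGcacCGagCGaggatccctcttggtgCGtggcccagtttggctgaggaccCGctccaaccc
Lin28b: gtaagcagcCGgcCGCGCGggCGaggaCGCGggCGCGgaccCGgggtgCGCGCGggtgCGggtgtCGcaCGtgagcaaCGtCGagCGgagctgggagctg
Klf4: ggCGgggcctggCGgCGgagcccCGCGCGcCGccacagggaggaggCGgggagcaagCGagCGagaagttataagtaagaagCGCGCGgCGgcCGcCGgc
Pou5f1: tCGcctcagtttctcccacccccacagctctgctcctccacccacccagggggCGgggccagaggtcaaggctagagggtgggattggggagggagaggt
Nanog: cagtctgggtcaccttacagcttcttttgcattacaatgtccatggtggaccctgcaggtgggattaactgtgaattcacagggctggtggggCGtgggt

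Sox2 (chr3:34549338-34549437 (plus strand)) begins at its first codon and holds 15 CpGs, and Trim28 (chr7:13610068-13610167 (plus strand)) does likewise with 17. The stretch of Jarid2 (chr13:44825591-44825690 (plus strand)) holds 10, that of Lin28b (chr10:45205933-45206032 (minus strand)) holds 19 and that of Klf4 (chr4:55545348-55545447 (minus strand)) holds 16. Pou5f1 (chr17:35642882-35642981 (plus strand)) holds 2 and Nanog (chr6:122657407-122657506 (plus strand)) holds 1. These were chosen as examples and come from different places relative to the start, and such stretches overlapped in general, from 9 CpGs (Mybl1, Socs3) upward in genes with a promoter peak and up to 11 (Foxd3, Fgf5) in genes without one.

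The promoter peaks of the listed genes had a higher median signal than those of other genes, a comparison given here as a description without a test. Their mean normalized count over the 4 samples had a median of 145, against 65.3 in the other promoter peaks, and per kb of peak the medians were 234 and 128. Individual peaks spanned nearly the whole range. Trim28, the co-repressor that KRAB zinc finger proteins recruit to silence retroviral elements, ranked 12 among the 4090 promoter peaks, whereas the first Fgfr1 peak ranked 4059. Klf2, Klf4 and Sox2 ranked 19, 20 and 27.

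Against 2i ESCs, the median log2 fold change of the 19 peaks (serum over 2i) was 0.31, beside -0.05 in the other promoter peaks, and it was 0.53 without 2i replicate 2. Stronger peaks of other genes also leaned toward serum, and the 686 other promoter peaks at or above the listed genes' median signal had a median of 0.13. Each peak was tested by limma on log2(normalized count + 1), a scale that understates the change of weak peaks, and was called where the conditions differed by more than 1 on that scale and the p before adjustment was under 0.05. By this rule, 6 of the 19 peaks were called, where 10.3% of all peaks were. Of these 6, 5 were higher in serum ESCs (4.82% of all peaks) and 1 was higher in 2i ESCs (5.48% of all peaks). After Benjamini-Hochberg adjustment over all peaks, 2 of the 19 stayed called, beside 1.46% of all peaks. Both replicates in serum lay above both in 2i at 8 of the 19 peaks (24.9% of all peaks), and the conditions did not overlap in either direction at 11 (49.3% of all peaks), so the share without overlap was near that of all peaks. With 2 replicates per condition, an exact two-sided permutation test of a single peak cannot go below p = 0.333, and each call therefore rests on limma's pooling of the spread over peaks.

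A pair among the 19 belongs to the list by annotation only. A long Fgfr2 transcript model starts at position 140315033 of chromosome 7, at the promoter of Ctbp2, a co-repressor gene, and far from the start at 137409759 where the Fgfr2 peak itself lay. Both peaks there were called and both stayed called after adjustment. Without this pair, 4 of 17 peaks were called, 0 of them after adjustment and 6 (35.3%) at an unadjusted p under 0.05 whatever the fold by limma, beside 17.8% of all peaks. Their median log2 fold change was 0.28. On the recovered reads, 6 of the 19 peaks were called as well with edgeR (500 of all peaks) and with DESeq2 (399 of all peaks). Under cyclic loess normalization 3 were (398 of all peaks), and fewer than 6 were without 2i replicate 1.

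**Figure D2:**
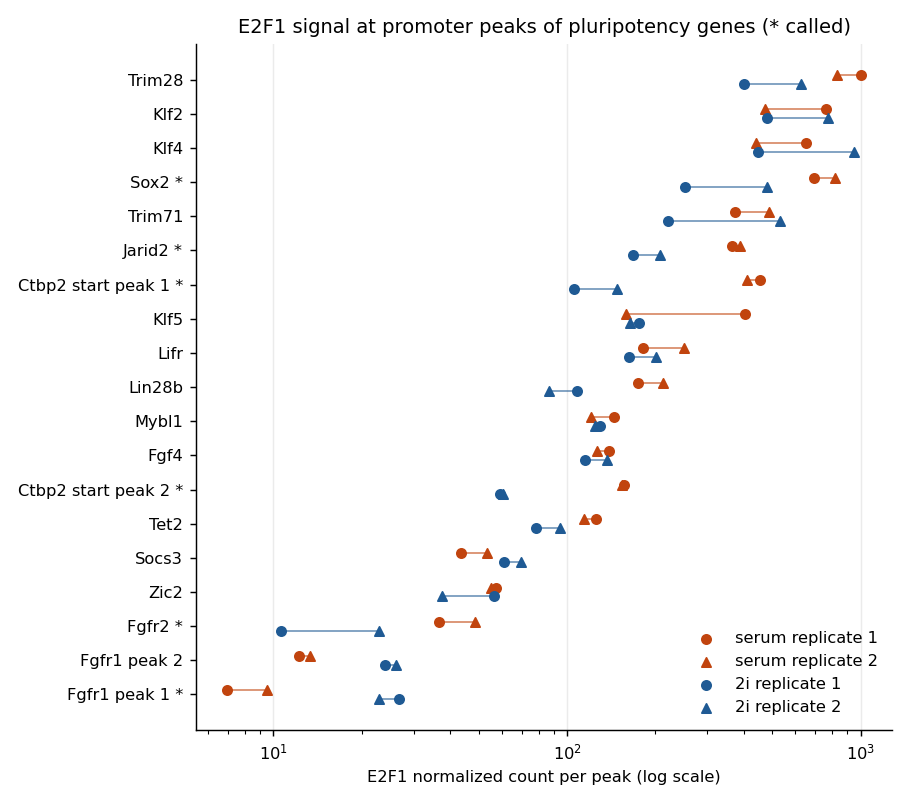
Normalized count of E2F1 (horizontal log axis) at each of the 19 promoter peaks in serum replicates (orange) and 2i replicates (blue), circles for replicate 1 and triangles for replicate 2, with lines joining the replicates of a condition. Asterisks mark the 6 called peaks, and at Ctbp2, Fgfr2, Jarid2 and Sox2 both serum values lie to the right of both 2i values.

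Of the 7 core factor genes, Sox2 alone had a promoter peak, and it was called higher in serum ESCs. Sox2 is the partner with which Oct4 binds composite sites. Its peak (chr3:34548981-34549572) was centered 218 bp downstream of the start, over exon sequence annotated as untranslated. It held 693 and 819 normalized counts in serum and 251 and 482 in 2i. The lower serum value lay well above the higher 2i value, although the 2i replicates differed from each other by 1.92 times. The means of 756 ± 88.6 in serum and 367 ± 163 in 2i (SD, n = 2) gave a log2 fold change of 1.11 (SE 0.33, adjusted p = 0.126, limma). The call ended under cyclic loess normalization, at 0.75, without serum replicate 2, at 0.99, and without 2i replicate 1, at 0.64.

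The other 6 core genes, Pou5f1, Nanog, Sall4, Sall1, Foxd3 and Utf1, had no promoter peak. No peak lay closer than 191000 bp to a Pou5f1 start or 93871 bp to a Nanog start. Sall1 and Foxd3, which encode a zinc finger and a forkhead factor, did have peaks inside the gene, outside the window. The Sall1 peak (chr8:91566305-91567025, in an intron) held 420 and 422 normalized counts in serum and 239 and 286 in 2i, with a log2 fold change of 0.69 (SE 0.25, adjusted p = 0.192, limma). At Foxd3 the peak (chr4:99323939-99324689, coding exon) held 249 and 132 in serum and 101 and 111 in 2i, with a log2 fold change of 0.77 (SE 0.31, adjusted p = 0.233, limma), and it overlaps the window of the annotated gene BX005053.1 too. Neither was called, and at both the serum replicates lay above the 2i replicates (24.9% of all peaks).

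Among 10 naive factor genes, the 3 Krüppel-like factors Klf2, Klf4 and Klf5 had promoter peaks, 0 of them called. These zinc finger proteins share targets and sustain self-renewal in ESCs. At Klf2 (chr8:74843414-74844156, centered 853 bp downstream of the start in coding sequence), serum held 761 and 472 normalized counts and 2i held 481 and 772. At Klf4 (chr4:55544993-55545756, centered 27 bp upstream), serum held 652 and 440 and 2i held 446 and 947. Both genes ranked among the strongest promoter peaks, and at both the conditions overlapped, with replicates of 1 condition further apart than the condition means. The log2 fold changes were -0.02 (SE 0.34) at Klf2 and -0.28 (SE 0.38) at Klf4, with adjusted p of 0.982 and 0.755 (limma). The sign at both turned when 2i replicate 2 or serum replicate 2 was left out.

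Klf5 differed between the serum replicates more than between the conditions. Its peak (chr14:99697864-99698625, centered in coding sequence) held 404 normalized counts in serum replicate 1 and 158 in serum replicate 2, beside 175 and 164 in 2i. The first serum value stood alone and the second lay below both 2i values. The log2 fold change of 0.58 (SE 0.37, adjusted p = 0.445, limma) was decided by that library, being -0.10 without serum replicate 1 and 1.25, then called, without serum replicate 2.

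Esrrb, Tfcp2l1 (named Tcfcp2l1 in the annotation), Tbx3, Prdm14, Nr0b1, Nr5a2 and Gbx2 had no promoter peak. Gbx2, a homeobox gene that acts downstream of LIF, had a pair of peaks further into the gene. Both were called higher in serum ESCs (4.82% of all peaks). The peak in an exon annotated as untranslated (chr1:91827530-91827853) held 71.4 and 33.4 normalized counts in serum and 17.4 and 15.6 in 2i, with a log2 fold change of 1.51 (SE 0.47, adjusted p = 0.138, limma). That over coding sequence (chr1:91826693-91827193) held 71.4 and 68.6 in serum and 33.0 and 28.2 in 2i, with a log2 fold change of 1.17 (SE 0.35, adjusted p = 0.121, limma). Both serum values exceeded both 2i values at each (24.9% of all peaks). The window of another annotated gene, D130058E05Rik, also overlaps the latter peak.

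Of 7 Dppa and germ-line linked genes, Mybl1, which encodes the A-MYB factor of male meiosis, had a promoter peak (chr1:9690102-9690737). Its values ran from 121 to 145 normalized counts in serum and from 124 to 130 in 2i, and the conditions overlapped, with a log2 fold change of 0.06 (SE 0.25, adjusted p = 0.929, limma) whose sign turned under cyclic loess and under equal totals. Dppa2, Dppa3, Dppa4, Dppa5a, Tcl1 and Rex2 had none, and their CpG ratios lay between 0.137 and 0.418.

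In the LIF pathway, the receptor gene Lifr and the feedback inhibitor gene Socs3 had promoter peaks, and Il6st and Stat3 had none. Lifr (chr15:7079157-7079973) ranged from 181 to 250 normalized counts in serum and from 162 to 201 in 2i, with a log2 fold change of 0.23 (SE 0.27, adjusted p = 0.703, limma). Socs3 (chr11:117830373-117830929) held 43.6 and 53.4 in serum and 61.0 and 69.9 in 2i. Socs3 was among 3 of the 19 listed peaks with both serum values below both 2i values, as were 1103 of the 4523 peaks in all, and its log2 fold change of -0.43 (SE 0.33, adjusted p = 0.531, limma) was not called.

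Of 6 peaks assigned to FGF genes 4 were called (10.3% of all peaks), but 2 of these are the pair at the Ctbp2 start. The other 2, weak peaks at the Fgfr2 and Fgfr1 starts, were called in opposite directions. Fgf4, the ligand that ESCs secrete, had a promoter peak (chr7:152047234-152047788) between 127 and 139 normalized counts in serum and between 115 and 137 in 2i. The conditions overlapped, and the log2 fold change was 0.09 (SE 0.25, adjusted p = 0.897, limma), turning to -0.0045 with all samples set to the same total. Fgf5, a marker of primed cells, had no promoter peak.

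Fgfr2 carried a weak peak over its start (chr7:137409589-137409936) that was called higher in serum ESCs. It held 36.6 and 48.6 normalized counts in serum, from 21 and 51 reads, and 10.6 and 22.9 in 2i, from 19 and 22 reads. The serum values were the higher ones throughout, and the 2i replicates differed by 2.16 times. The mean was 2.54 times higher in serum, with a log2 fold change of 1.37 (SE 0.49, adjusted p = 0.181, limma). The call was lost without 2i replicate 1, at 0.85, and without serum replicate 2, where the fold change stayed past the limit at 1.17 and the p did not.

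Fgfr1 had a pair of weak peaks, and the first was the 1 listed peak called higher in 2i ESCs. That peak (chr8:26629216-26629533) held 6.97 and 9.53 normalized counts in serum, from 4 and 10 reads, and 26.9 and 22.9 in 2i, from 48 and 22 reads. The 2i mean was 3.02 times the serum mean, with a log2 fold change of -1.50 (SE 0.53, adjusted p = 0.175, limma). The second peak (chr8:26629693-26630071), centered in a coding exon, held 12.2 and 13.3 in serum and 24.1 and 26.1 in 2i, and at -0.92 (SE 0.49, adjusted p = 0.345, limma) it was not called. Both peaks had lower values in serum in every replicate, as did 1103 of the 4523 peaks in all. They share the gene and lie side by side, and so are not independent of each other. Cyclic loess brought the first to -0.79, no longer called. Without 2i replicate 1 or 2i replicate 2 its fold change stayed past the limit, at -1.39 and -1.61, but the p did not. At these depths the serum values rest on few reads.

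The pair of peaks at the Ctbp2 start showed the clearest difference. The longer one (chr7:140313379-140314571, centered in an intron) held 453 and 409 normalized counts in serum and 105 and 148 in 2i. The shorter one (chr7:140314717-140315087, over the start) held 157 and 154 in serum and 59.3 and 60.5 in 2i. At both, replicates of a condition were close and the conditions far apart. The log2 fold changes were 1.78 (SE 0.26, adjusted p = 0.0121) and 1.36 (SE 0.26, adjusted p = 0.0347, limma), and both were also called before adjustment under each of the 14 alternative settings run over all peaks. After adjustment neither was called without a variance trend or without serum replicate 1, serum replicate 2 or 2i replicate 1, and 1 was without 2i replicate 2.

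None of the 4 Nodal pathway genes (Nodal, its antagonists Lefty1 and Lefty2, and the co-receptor gene Tdgf1) had a promoter peak. The same held for Id1, Id2 and Id3, targets of BMP signaling whose products block basic helix-loop-helix factors. An intergenic peak centered at -2751 bp from the Id2 start (chr12:25783494-25783923) held 71.4 and 77.2 normalized counts in serum and 33.0 and 37.6 in 2i. Serum exceeded 2i in both replicates and the peak was called, with a log2 fold change of 1.06 (SE 0.33, adjusted p = 0.139, limma). A peak 2974 bp from an Id3 start overlapped between conditions, with a log2 fold change of 0.38 (SE 0.35, adjusted p = 0.617, limma).

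Between the primed-state factor genes, Zic2 had a promoter peak and Otx2, which opens primed enhancers, had none. The Zic2 peak (chr14:122874291-122874772) held 55.3 to 57.5 normalized counts in serum and 37.6 to 56.5 in 2i. The conditions overlapped, with a log2 fold change of 0.28 (SE 0.35, adjusted p = 0.727, limma).

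Lin28b and Trim71, which encode RNA-binding proteins of early development, had promoter peaks, and Lin28a and L1td1 had none. Lin28b, whose product blocks maturation of the let-7 family of microRNAs, was just short of a call. Its peak (chr10:45205532-45206440) held 174 and 213 normalized counts in serum and 108 and 86.6 in 2i, without overlap. The mean was 1.99 times higher in serum, at a log2 fold change of 0.99 (SE 0.26, adjusted p = 0.0927, limma), with the p before adjustment inside its limit. It was called without 2i replicate 1, at 1.14, and without serum replicate 1, at 1.13.

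Trim71, whose product represses target mRNAs, was strong but varied within 2i. Its peak (chr9:114472438-114473074) held 373 and 488 normalized counts in serum and 221 and 533 in 2i. The 2i replicates enclosed both serum values. The log2 fold change was 0.31 (SE 0.38, adjusted p = 0.718, limma), and -0.32 without 2i replicate 1. A further peak in a coding exon of the gene, outside the window, held 132 and 163 in serum and 68.3 and 120 in 2i, with a log2 fold change of 0.69 (SE 0.31, adjusted p = 0.272, limma).

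The chromatin partner genes Trim28, Jarid2 and Tet2 had promoter peaks, and Tet1 had none. At each of the 3 both serum values lay above both 2i values (24.9% of all peaks), and 1 of the 3 was called (10.3% of all peaks). The called gene was Jarid2, which encodes a cofactor of Polycomb repressive complex 2. Its peak (chr13:44825263-44826018, centered in an intron 476 bp downstream of a start) held 364 and 389 normalized counts in serum and 168 and 208 in 2i. With means of 377 ± 17.5 and 188 ± 28.0 (SD, n = 2), the gap far exceeded the spread of the replicates, and the log2 fold change of 1.01 (SE 0.25, adjusted p = 0.0786, limma) lay just past the limit of 1. It slipped below 1 under cyclic loess (0.81), a pseudocount of 8 (0.98) and equal totals (0.92), and without 2i replicate 1 (0.86) or serum replicate 2 (0.96), while its p before adjustment stayed inside the limit.

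Trim28 (chr7:13609645-13610394) held 1002 and 830 normalized counts in serum and 402 and 629 in 2i, the highest mean of the 19 peaks. Its conditions did not overlap, but at a log2 fold change of 0.86 (SE 0.32, adjusted p = 0.197, limma) it was not called, and without 2i replicate 2 it was, at 1.18. Tet2 (chr3:133207206-133207777), an enzyme gene of DNA demethylation, ranged from 114 to 125 in serum and from 78.4 to 94.9 in 2i, with a log2 fold change of 0.47 (SE 0.27, adjusted p = 0.380, limma).

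**Figure D3:**
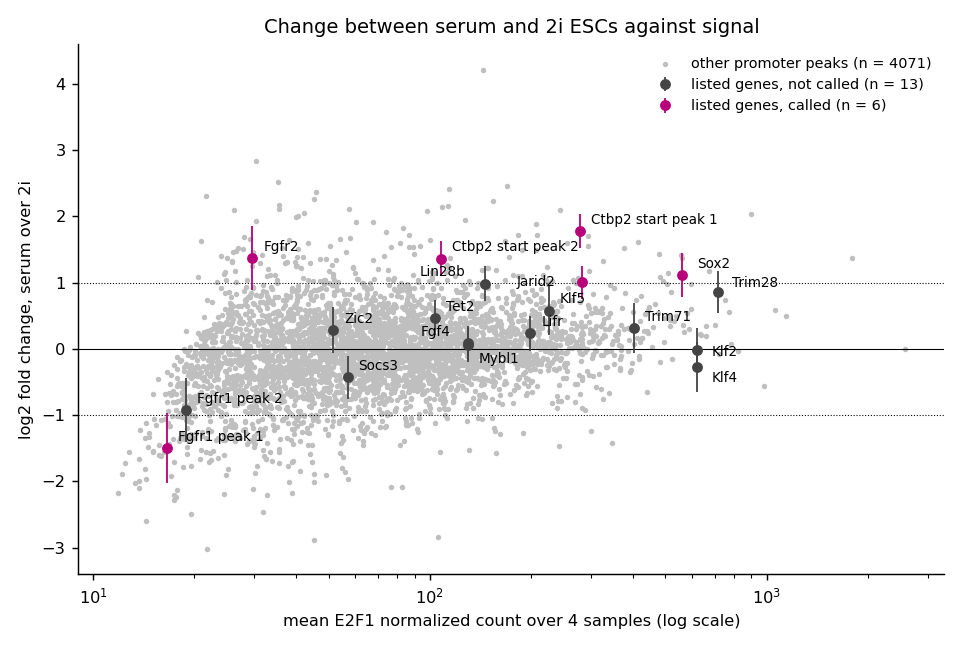
Log2 fold change of serum over 2i (vertical axis) against mean normalized count over the 4 samples (horizontal log axis), with 4071 other promoter peaks in gray and the listed genes' peaks labeled, called in magenta and not called in dark gray, with bars of 1 standard error. Dotted lines mark a log2 fold change of 1 in either direction, and Sox2, Jarid2, Fgfr2 and the Ctbp2 pair lie above the upper one.

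The replicates of 2i ESCs differed at several strong listed peaks and at the weak Fgfr2 peak. In 2i, the ratio of replicate 2 to replicate 1 was 1.56 at Trim28, 1.61 at Klf2, 2.12 at Klf4, 1.92 at Sox2, 2.41 at Trim71 and 2.16 at Fgfr2. It had a median of 1.21 over the 19 peaks, beside 0.988 over the other promoter peaks and 1.02 over the 686 stronger ones among them. In serum, the corresponding medians were 0.985, 0.998 and 0.982. Serum replicates differed at single strong peaks as well, with a ratio of 0.39 at Klf5, 0.62 at Klf2 and 0.68 at Klf4.

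By the rule that chose them, all the peaks lay near a start. The 17 peaks outside the Ctbp2 pair were centered between 137 bp upstream (Tet2) and 853 bp downstream (Klf2) of the nearest start.

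**Figure D4:**
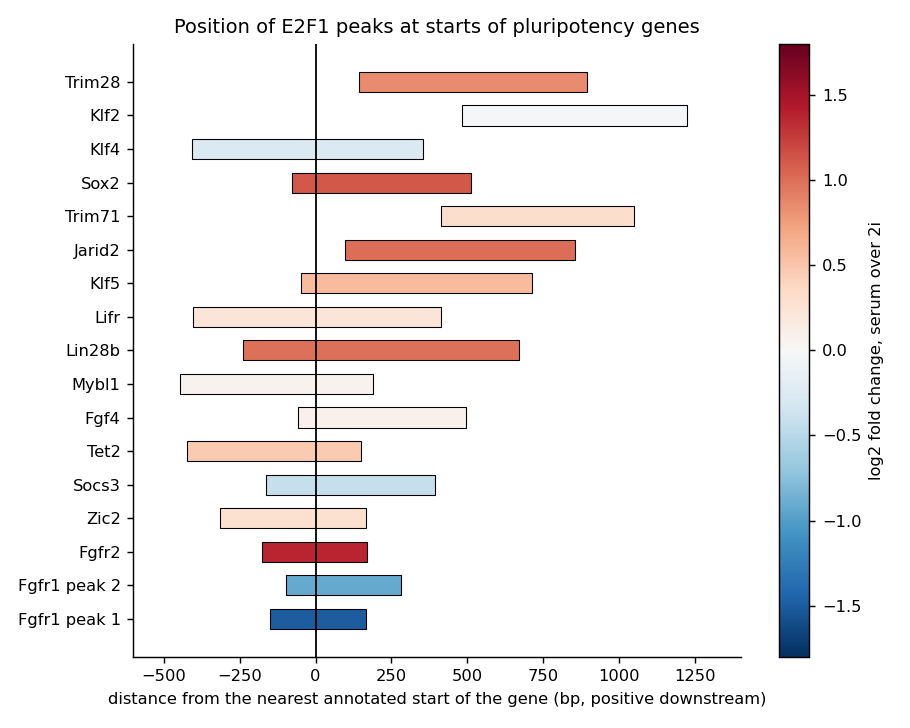
Extent of each of the 17 promoter peaks outside the Ctbp2 pair relative to the nearest annotated start of the gene (horizontal axis in bp, positive downstream), ordered by mean signal and colored by log2 fold change, red for higher in serum and blue for higher in 2i. The peaks of Klf2 and Trim71 begin farthest downstream, and the 2 Fgfr1 peaks are placed against different starts.

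A further list held 47 genes that have been linked to pluripotency but are not among the 49. Of these, 29 had a promoter peak, with 19 of the 29 peaks at a positive and 10 at a negative log2 fold change and a median of 0.14, where 47.8% of all peaks had a positive one. By the same rule, 5 of the 29 were called (10.3% of all peaks), 4 of them higher in serum ESCs (4.82% of all peaks). Pou3f1 (Oct6), a factor of primed cells, held 138 and 234 normalized counts in serum and 50.4 and 31.3 in 2i, with a log2 fold change of 2.15 (SE 0.35, adjusted p = 0.0173, limma). Dnmt3b, the de novo DNA methyltransferase gene of primed cells, held 169 and 249 in serum and 72.2 and 105 in 2i, with a log2 fold change of 1.22 (SE 0.30, adjusted p = 0.0758, limma). At both genes the lower serum value was above the higher 2i value (24.9% of all peaks).

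Klf3 and Klf9, which encode further Krüppel-like factors, were called higher in serum at 1.15 (SE 0.31) and 1.03 (SE 0.27), with adjusted p of 0.0954 and 0.0919 (limma). Eomes, a T-box gene of the primitive streak, was called higher in 2i at -1.32 (SE 0.55, adjusted p = 0.244, limma), from values of 6.97 and 14.3 in serum and 33.6 and 20.9 in 2i. Of these 5, Pou3f1 alone passed after adjustment.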

How the data were processed

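E2F1 ChIP-seq of 2 serum and 2 2i replicates was used. The authors mapped read pairs to mm9 (BWA), dropped duplicates and blacklisted regions, ran macs2 per sample, kept peaks that both replicates of a condition shared, pooled the serum and 2i peaks, counted reads (bedtools) and used DESeq2. Versions are not given in the sources used here. The authors deposited a signal per peak and sample, the read count divided by a size factor: 99.95% of 18092 values were whole multiples of 1 read (within 0.01 read), and 9 serum values were exactly 2 and taken as 0 reads in count tests. Because peaks found in 1 replicate of a condition were dropped before merging, a gene without a peak may still hold signal. Per-sample columns left unused numbered 0.

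All 4523 peaks were fitted with limma (version 3.58.1, R 4.3.3) on log2(normalized count + 1), with a variance trend and no block. The fold and p limits follow the study's methods, which do not say whether p was adjusted. The study applied them with DESeq2 and reports a smaller share of differential sites than the 10.3% of all peaks called here by limma. DESeq2 on the recovered reads called 399 of all peaks. The study's methods call the replicates biological. The p-values set the difference between conditions against the replicate spread in these 4 samples, which limma pools over peaks. Peaks were placed on NCBIM37 (mm9) with GENCODE M1, and their coordinates are as deposited, with the counting of starts from 0 or 1 not stated. Sequence coordinates count from 1. The fits were tested on simulated data. Alternatives used edgeR 4.0.16, DESeq2 1.42.0, other scalings, pseudocounts, filters and windows, and left out each replicate. Leaving out the Ctbp2 pair was chosen after seeing the data.

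The listed genes, roles and further list were chosen with earlier results of these data known. Among the listed peaks, values in every sample were given for called ones, the 8 strongest and those close to the call limits. They were also given for the 3 with the largest log2 fold change in each direction, and other listed peaks were given by range. Genes without a promoter peak were given with peaks in the gene or within 10 kb of a start.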

Additional observations from a re-analysis of the deposited data

How the results depend on the processing

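The count of 16 genes with a promoter peak was the same with a window of 500 bp either side of a start and with protein-coding transcripts only. It was 13 with the peak center required in the window. The genes lost were Trim28, Trim71 and Klf2, whose strong peaks are centered 518, 731 and 853 bp downstream of the start. Of the 19 peaks, 6 were called, 3 under cyclic loess and 3 to 7 with 1 replicate left out, where the lone sample of a condition is assumed to vary like the others. After adjustment the 2 called peaks, both at the Ctbp2 start, became 0 without a variance trend, 0 to 1 with 1 replicate left out and 0 without that pair. Over all peaks, 466 were called, and 398 under cyclic loess. With peaks of a mean below 50 normalized counts left out, a filter that tests fewer peaks, 188 were called. The number called over all peaks also changed with the replicate left out, so the range among the 19 peaks cannot be read by itself. The listed peaks' median log2 fold change, 0.31 with all samples, lay between 0.32 and 0.53 with 1 replicate left out. The median signal of 145 was 212 with that filter, 129 with the peak center required in the window, 234 per kb and 133 to 165 with 1 replicate left out.

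The main fit did not pair the samples by replicate number. Over all peaks, deviations of same-numbered samples correlated at 0.05, a value that cannot tell how the samples were prepared. In a fit with a replicate block, 6 of the 19 peaks and 504 of all peaks were called before adjustment. After adjustment 4 of the 19 stayed called, without a count over all peaks to set beside them.

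With equal totals, a scaling that shifted the median of all peaks by -0.09, the log2 fold change turned to -0.0045 at Fgf4 and -0.031 at Mybl1, and under cyclic loess to -0.0044 at Mybl1. With 1 replicate left out it ran from -0.040 to 0.21 at Fgf4, -0.068 to 0.19 at Mybl1, -0.37 to 0.32 at Klf2, -0.82 to 0.26 at Klf4, -0.10 to 1.25 at Klf5, -0.32 to 0.94 at Trim71 and -0.0042 to 0.57 at Zic2. The cause of these changes was not tested. Of all values of single peaks under the alternatives, 234 kept direction and side of the threshold, 13 lost the call, 4 gained it and 12 changed sign. Depth limits the Fgfr1 and Fgfr2 peaks, which rest on 4 to 51 reads per sample.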
